A study of Rattus norvegicus with 29 samples.

Results

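The synaptic vesicle release machinery was followed in rats of the alcohol-preferring (P) line, bred for high voluntary ethanol drinking, in tissue of the nucleus accumbens shell. It was defined as 39 genes, and each was represented by its brightest probe set, that is, the probe set with the highest mean over all 29 arrays among those that the platform table pairs with exactly that symbol. Probe sets of 38 of the 39 genes were found, against 14217 genes named on the whole array, and the table lists none for Doc2a, a calcium-binding protein of vesicles. Of the 38, Syn3, a synapsin, and Rph3a, an effector of RAB3 proteins, were among the dimmest 30 percent of probe sets, at 6.33 to 6.87 and 5.79 to 6.41 on the log2 scale against a limit of 6.86, and were not tested. The other 36 members were tested.

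The labels place 10 samples in a group exposed to continuous ethanol, 10 in a group with limited access to ethanol and 9 in a water group. All samples are nucleus accumbens shell of the P line, so every comparison is within 1 selected line and has no unselected line beside it. The series' design names 10 controls, of which 9 were analysed here. The labels used here state no age, sex, length of exposure or hours of access, and do not say that each sample is a separate animal, so the p-values describe only how far these samples vary, which may include technical variation.

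Transmitter is stored in vesicles that are held near the active zone, a protein scaffold at the release site of the axon terminal. Munc13 and RIM proteins prepare the vesicles for fusion, SNARE proteins of the vesicle and of the plasma membrane pair to draw the membranes together, complexins hold the pairs, and synaptotagmins trigger fusion when calcium enters. NSF and the SNAP adaptors then take the SNARE complexes apart, and clathrin adaptors, dynamin and synaptojanin recover the membrane. In the accumbens shell most neurons are inhibitory medium spiny cells, whereas many of the terminals belong to axons from the cortex, amygdala, hippocampus and midbrain. The RNA of such inputs lies mainly in cell bodies elsewhere, so these values describe mainly the RNA of cells within the dissected tissue. In a piece of tissue, fewer cells of a type and less RNA per cell cannot be told apart.

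The tissue label was checked against marker genes. Of 14 medium spiny neuron markers 13 were above the limit for dim probe sets, among them Drd1 at a mean of 12.14, Penk at 13.54 and Ppp1r1b at 12.53. Markers of cortical projection neurons were also present (9 of 10 above the limit, Slc17a7 at 11.42 and Tbr1 at 7.12), and all 10 microglia markers were. Array medians lay between 8.17 and 8.21. On the first principal component, which held 20.3% of the variance, water replicates 9 and 7 and continuous replicate 4 had the lowest scores, from -37.1 to -14.7 against -8.99 to 17.5 in the other 26 arrays. These 3 were taken as a set after the data were seen. The widest gap between scores lay within the set, between water replicate 9 (-37.1) and water replicate 7 (-20.6). On the second component, with 16.5% of the variance, water replicates 2, 5 and 6 and limited access replicates 6 and 7 lay at -22.2 to -15.6 against -3.30 to 20.2 in the rest, and no continuous ethanol array lay there. Of 108 member differences (36 members in 3 comparisons) 44 were 0.05 or more in size. Of these, 12 moved by over 1.5 times or turned sign when the 3 arrays low on the first component were omitted, and 26 did so when the 5 arrays were. Values without the arrays are given beside those of them that are described, for the brightest probe sets of members only.

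The 3 prime minus 5 prime signal of the beta-actin and GAPDH control probe sets on the log2 scale, a measure of RNA quality, had a lowest, median and highest value of 0.45, 0.49 and 0.58 in limited access, 0.49, 0.54 and 0.58 in water, and 0.47, 0.57 and 0.66 in continuous ethanol. The groups overlapped, with limited access lowest by its median. Where using it as a covariate moved a difference of the 12 members given with full statistics by over 1.5 times, the value from that fit is given beside it, and the part of RNA quality in these results was not tested further.

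No gene of the release machinery passed the test in any comparison, and every fitted difference was 0.30 or less in size on the log2 scale. In limma's test with Benjamini-Hochberg adjustment over 21729 probe sets, 0 of 36 members passed a threshold of 0.05 for continuous ethanol against water, where 0.152% of all tested probe sets passed, and the smallest adjusted p of a member was 0.182. For limited access against water 0 of 36 passed, as did 0% of all probe sets, with a smallest adjusted p of 0.971. For limited access against continuous ethanol 0 of 36 passed, beside 0.00460% of all probe sets, with a smallest adjusted p of 0.526. The F test over the 3 groups called 0 members and 0.0828% of all probe sets, with a smallest adjusted p of 0.325.

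At an unadjusted p under 0.05, 3 members were higher after continuous ethanol than after water (Rab3c, Sypl1 and Rab5a) and 0 were lower, where 9.62% of all tested probe sets were higher and 6.48% lower, or 16.1% in all. Under limited access 1 member, Rab3c, was higher than in water and 0 were lower, beside 2.10% of all probe sets higher, 2.34% lower and 4.44% in all. Limited access was below continuous ethanol at this level for 2 members, Sypl1 and Vamp2, and above it for 0, beside 5.74% of all probe sets below, 3.56% above and 9.31% in all. The F test had an unadjusted p under 0.05 for 2 members, beside 11.6% of all probe sets. Both ethanol groups are compared with the same water arrays, so these counts are not independent of each other.

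The median log2 change of the 36 members was 0.00 for continuous ethanol against water, with 20 differences above 0 and 16 below, and the median over all tested probe sets was also 0.00, with 52.5% above 0. Against water, limited access gave a median of 0.00 in the members and 0.00 over all probe sets. Limited access minus continuous ethanol had a median of 0.02 in the members, with 23 above 0 and 13 below, and -0.01 over all probe sets. The differences of single members lay between -0.13 and 0.20, between -0.08 and 0.30, and between -0.17 and 0.16 in the 3 comparisons. In each comparison the groups overlapped for all 36 members, and only 0.0322%, 0.00460% and 0% of all tested probe sets had groups that did not overlap.

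**Figure D1:**
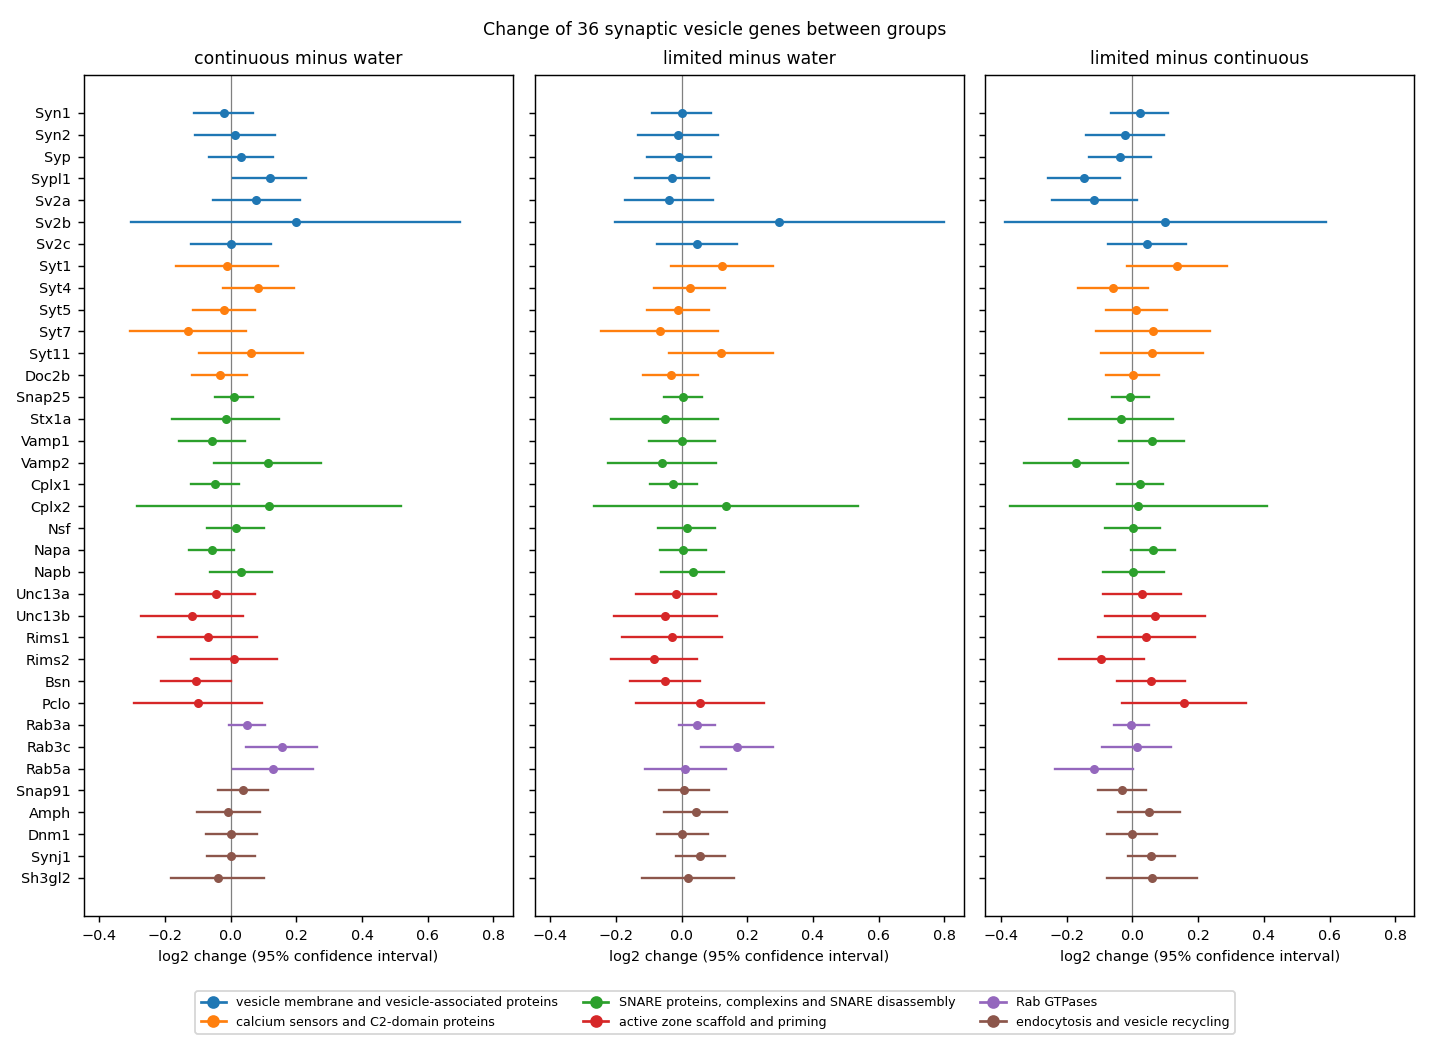
Difference between group means on the log2 scale (horizontal axis) of the 36 tested members, ordered by role, in the 3 comparisons; points are the fitted differences and bars their 95% confidence intervals. Most points lie within 0.2 of 0, the 2 widest intervals are those of Sv2b and Cplx2, and no member passed the adjusted threshold.

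Among the vesicle membrane and vesicle-associated proteins, 7 members were tested. Sypl1 encodes synaptophysin-like protein 1, a relative of synaptophysin that is also made outside neurons. Its lowest, median and highest log2 values were 12.57, 12.78 and 12.95 in water, 12.40, 12.80 and 12.97 in limited access, and 12.80, 12.89 and 13.00 in continuous ethanol. All 10 continuous ethanol arrays lay above the water mean, though the groups overlapped, and the limited access arrays covered the widest range. Continuous ethanol exceeded water by 0.12 ± 0.05 (SE; 95% interval 0.01 to 0.23, adjusted p = 0.285). Limited access was below continuous ethanol by a difference of -0.15 ± 0.05 (adjusted p = 0.526), in 8 of 10 arrays. With the 5 arrays that stood apart on the second component left out, these differences were 0.07 and -0.08. The part of those arrays in the result was not tested further.

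Sv2a encodes a vesicle glycoprotein found at most synapses and known as the binding site of the drug levetiracetam. It ranged from 10.62 to 11.29 in water with a median of 11.01, from 10.85 to 11.07 in limited access with a median of 10.99, and from 10.73 to 11.28 in continuous ethanol with a median of 11.09. The limited access values lay within the range of both other groups, and all 10 were below the continuous ethanol mean. The difference between limited access and continuous ethanol was -0.12 ± 0.06 (adjusted p = 0.558). With the 3 prime minus 5 prime covariate it was -0.02 (adjusted p = 0.988).

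The synapsins tether vesicles to each other and to actin. For Syn1 the differences were -0.02 ± 0.04 for continuous ethanol against water and 0.00 ± 0.04 for limited access against water, and for Syn2 they were 0.01 ± 0.06 and -0.01 ± 0.06. Syp, which encodes the abundant vesicle protein synaptophysin, gave 0.03 ± 0.05 and -0.01 ± 0.05. For Syp these 95% intervals ran from -0.07 to 0.13 and from -0.10 to 0.09. Sv2c, the SV2 form known for its expression in the basal ganglia, gave 0.00 ± 0.06 and 0.05 ± 0.06.

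Sv2b, the SV2 form typical of many glutamatergic terminals, varied far more than the other vesicle proteins. In the 3 arrays with the lowest scores on the first component it read 10.43 (water replicate 9), 11.52 (water replicate 7) and 11.20 (continuous replicate 4). The other 26 arrays lay between 12.51 and 13.09 with a median of 12.74. Each of the 3 arrays was thus below every other array, and none of them was a limited access array. With all arrays the difference of Sv2b was 0.20 ± 0.25 for continuous ethanol against water and 0.30 ± 0.25 for limited access against water. Without the 3 arrays these were -0.06 (adjusted p = 0.734) and -0.11 (adjusted p = 0.959), so the sign of both turned. With the 5 arrays that stood apart on the second component left out instead, they were 0.43 and 0.56.

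Cplx2, a complexin that binds assembled SNARE pairs and is common in forebrain excitatory neurons, was low in the same 3 arrays. It read 8.08 in water replicate 9, 8.95 in water replicate 7 and 8.91 in continuous replicate 4. The other 26 arrays lay between 9.47 and 10.26 with a median of 9.82. With all arrays its differences from water were 0.12 ± 0.20 (continuous ethanol) and 0.14 ± 0.20 (limited access), and without the 3 arrays they were -0.11 (adjusted p = 0.629) and -0.19 (adjusted p = 0.959). Omitting instead the 5 arrays of the second component gave 0.33 and 0.37. Sv2b and Cplx2 were the 2 of 36 members for which these 3 arrays were the 3 lowest of all 29, and 688 of 21729 tested probe sets (3.17%) showed the same, whereas 168 (0.773%) had them as the 3 highest. Their within-group SDs, 0.57 and 0.46, lay at the 99.5th and 99th percentile of all tested probe sets, whose median was 0.12, and fell to 0.13 and 0.21 without the 3 arrays.

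Over the other 26 arrays, as deviations from the group means, Sv2b and Cplx2 were set against each other, a pair chosen after their values were seen, so that the p-values do not allow for the choice. Pearson's r was 0.68 (permutation p adjusted over 2 relations = 0.00094) and Spearman's rho was 0.64 (permutation p adjusted over 2 relations = 0.0015). Without the 2 arrays farthest from the median of Sv2b, continuous replicate 3 and water replicate 5, r was 0.58. The next probe set of Sv2b did not show the low arrays. There the 3 arrays lay between 10.35 and 11.31, within the range of 10.24 to 11.34 of the other 26. Its relation to the brightest probe set over the 26 arrays did not pass (r = 0.41, adjusted permutation p = 0.0593, rho = 0.29, adjusted permutation p = 0.157). Another probe set of Sv2b was dim, at 5.43 to 5.90.

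**Figure D2:**
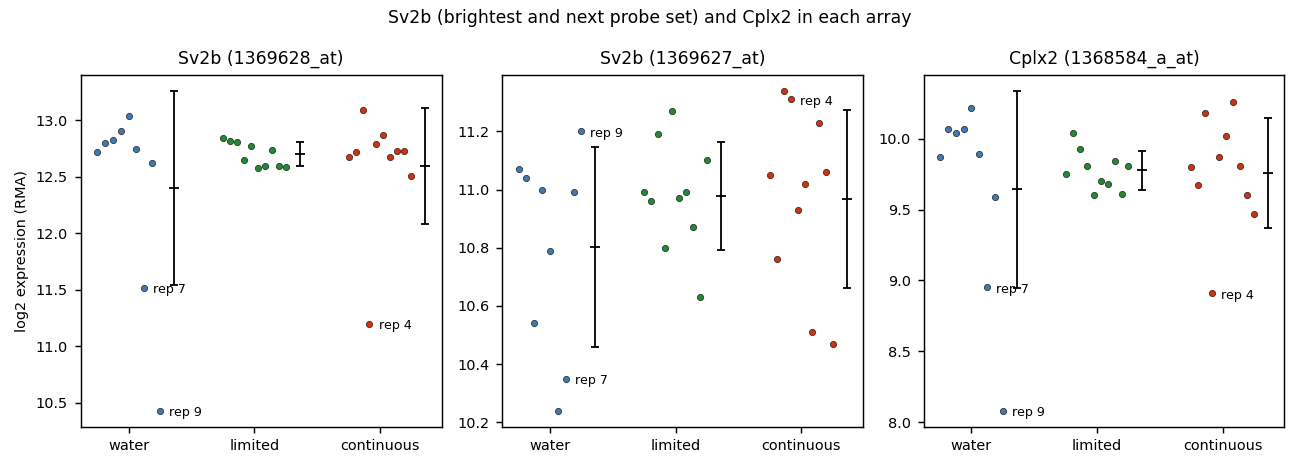
Log2 value of each of the 29 arrays (vertical axis) by group for the brightest Sv2b probe set, the next Sv2b probe set and Cplx2; each point is 1 array and the 3 arrays lowest on the first component are labelled. In the first panel and the Cplx2 panel these 3 arrays lie below the other 26, and in the panel of the next Sv2b probe set they lie within the range of the others.

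Among the calcium sensors and other C2-domain proteins, 6 members were tested. Syt1, the synaptotagmin that triggers fast synchronous release, ranged from 11.75 to 12.16 in water with a median of 11.97, from 11.97 to 12.25 in limited access with a median of 12.13, and from 11.44 to 12.35 in continuous ethanol with a mean of 11.99 ± 0.23 (SD, n = 10). The lowest value of all, 11.44, was that of continuous replicate 7. Limited access differed from water by 0.12 ± 0.08 (adjusted p = 0.972), higher in 8 of 10 arrays, and from continuous ethanol by 0.14 ± 0.07 (adjusted p = 0.561). Without continuous replicate 7 the latter difference was 0.07. With the 3 prime minus 5 prime covariate the 2 differences were 0.06 and 0.00 (adjusted p = 0.998 for the latter). Continuous ethanol differed from water by -0.01 ± 0.08.

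Syt11, a synaptotagmin that lacks calcium binding, ranged from 9.07 to 9.46 in water with a median of 9.30, from 9.11 to 9.68 in limited access with a median of 9.43 and from 9.01 to 9.72 in continuous ethanol with a median of 9.31. The groups overlapped over most of their range, and limited access differed from water by 0.12 ± 0.08 (adjusted p = 0.972), or by 0.08 without the 5 arrays of the second component. Syt7, a slower sensor with a higher calcium affinity, was lower than the water mean in 9 of 10 continuous ethanol arrays, with a difference of -0.13 ± 0.09 (adjusted p = 0.459), which was -0.06 without the 5 arrays. Syt5 differed by -0.02 ± 0.05 and Doc2b, a sensor linked to spontaneous release, by -0.03 ± 0.04. Against water, limited access gave -0.07 ± 0.09 for Syt7 (-0.04 without the 3 arrays and -0.11 without the 5), -0.01 ± 0.05 for Syt5 and -0.03 ± 0.04 for Doc2b.

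Syt4, a synaptotagmin known as an activity-induced gene and found on dense-core vesicles, gave different values from its 2 probe sets. The brightest differed from water by 0.08 ± 0.05 in continuous ethanol and by 0.02 ± 0.05 in limited access. Omitting the 5 arrays of the second component turned both, to -0.03 and -0.06. The next ranged from 10.30 to 10.88 in water with a median of 10.69, from 10.63 to 11.08 in limited access with a median of 10.85, and from 10.56 to 10.90 in continuous ethanol with a median of 10.77. All 10 limited access arrays of that probe set lay above the water mean, by a difference of 0.23 ± 0.07 (unadjusted p = 0.0018, adjusted p = 0.971), and continuous ethanol differed by 0.14 ± 0.07 (adjusted p = 0.294). For this probe set the lowest water arrays were replicates 9, 2, 7 and 6, at 10.30, 10.42, 10.45 and 10.52. Each is among the 3 arrays of the first component or the 5 of the second, whereas replicate 5, also of the 5, read 10.80. Differences without those arrays are not given for this probe set, and the part of the arrays was not tested. The probe set was singled out after its values were seen. Deviations of the 2 probe sets from their group means were barely related over the 29 arrays (r = 0.10, permutation p adjusted over 13 relations = 0.722; rho = 0.10, adjusted p = 0.728; r = 0.08 without water replicates 2 and 5).

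Of the SNARE proteins, complexins and disassembly factors, 9 members were tested. Vamp2 encodes synaptobrevin 2, the main vesicle SNARE of the forebrain. Its values ran from 11.79 to 12.60 in water with a median of 12.19, from 11.79 to 12.34 in limited access with a median of 12.16, and from 12.03 to 12.60 in continuous ethanol with a median of 12.29. The limited access values lay inside the water range. They were below the continuous ethanol mean in 9 of 10 arrays, with a difference of -0.17 ± 0.08 (95% interval -0.33 to -0.01, adjusted p = 0.530). Continuous ethanol against water gave 0.11 ± 0.08 (adjusted p = 0.489). With the 5 arrays that stood apart on the second component left out, these differences were -0.10 and 0.00, and without the 3 arrays low on the first they were -0.17 and 0.19. With the 3 prime minus 5 prime covariate the first was -0.11.

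Napa encodes alpha-SNAP, which brings NSF to spent SNARE complexes. It ranged from 12.57 to 12.73 in water (median 12.61), from 12.53 to 12.81 in limited access (median 12.61) and from 12.47 to 12.67 in continuous ethanol (median 12.56). Continuous ethanol was below water by a difference of -0.06 ± 0.03 (adjusted p = 0.392), in 9 of 10 arrays, and limited access was above continuous ethanol by 0.06 ± 0.03 (adjusted p = 0.549). The latter was 0.02 without the 5 arrays of the second component and 0.04 with the 3 prime minus 5 prime covariate. These differences are about as large as the SD within each group, 0.05 to 0.09. Its relative Napb, the brain form beta-SNAP, gave 0.03 ± 0.05 for both ethanol groups against water, and Nsf, the ATPase that pulls SNARE complexes apart, gave 0.01 ± 0.04 and 0.02 ± 0.04.

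Vamp1, the synaptobrevin of fast-firing neurons, was measured by 3 probe sets. For continuous ethanol against water they gave -0.06 ± 0.05 (the brightest, adjusted p = 0.583), -0.11 ± 0.05 (the next, adjusted p = 0.289) and -0.17 ± 0.06 (the dimmest, unadjusted p = 0.00502, adjusted p = 0.173). Without the 3 arrays low on the first component the brightest gave -0.02. The sign was the same in the 3 probe sets and the size was not. Limited access minus continuous ethanol gave 0.06, 0.12 and 0.14 in the same order, and limited access minus water gave 0.00, 0.01 and -0.02. The brightest probe set varied with the next over the arrays (r = 0.77, adjusted permutation p = 0.000182, rho = 0.68) but not detectably with the dimmest (r = 0.08, adjusted permutation p = 0.722, rho = -0.01). The other probe sets of Vamp1 were singled out after their values were seen.

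Snap25 and Stx1a encode the SNARE partners of the plasma membrane. Snap25 was among the steadiest members, with a within-group SD of 0.05, and differed from water by 0.01 ± 0.03 in continuous ethanol (95% interval -0.05 to 0.07) and by 0.00 ± 0.03 in limited access (-0.05 to 0.06). Stx1a differed by -0.02 ± 0.08 and -0.05 ± 0.08. Cplx1, the complexin typical of inhibitory neurons, gave -0.05 ± 0.04 and -0.02 ± 0.04.

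The active zone and priming group held 6 tested members, and none passed the test. In each ethanol group 5 of the 6 differences from water were below 0. The medians were -0.08 for continuous ethanol and -0.04 for limited access. Both comparisons use the same water arrays, and the members of an array are not independent of each other. Over all tested probe sets 52.5% and 50.5% of differences were above 0. Without the 3 arrays low on the first component, Rims1 for limited access turned to 0.003 and Rims2 for continuous ethanol to -0.02. Without the 5 of the second component instead, they were -0.09 and -0.01. Continuous replicate 7 lay below its group mean by deviations of -0.74 (Pclo), -0.53 (Unc13b), -0.46 (Rims1), -0.41 (Rims2), -0.26 (Bsn) and -0.07 (Unc13a). The part of this array in the median for continuous ethanol was not tested. Bsn encodes bassoon, a giant scaffold protein of the active zone. It ranged from 12.71 to 12.90 in water with a median of 12.79, from 12.62 to 13.02 in limited access with a median of 12.75, and from 12.44 to 12.97 in continuous ethanol with a median of 12.70. The continuous ethanol arrays spread on both sides of the water range. Their difference from water was -0.11 ± 0.05 (adjusted p = 0.316), lower in 8 of 10 arrays, and without continuous replicate 7 it was -0.08.

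Rims2, a RIM protein that links vesicles, calcium channels and RAB3, ranged from 8.35 to 8.62 in water (median 8.52), from 8.13 to 8.60 in limited access (median 8.43) and from 8.10 to 8.76 in continuous ethanol (median 8.51). Limited access differed from water by -0.08 ± 0.06 (adjusted p = 0.972), by -0.05 without limited access replicate 6 and by -0.05 without the 5 arrays of the second component. Rims1, the main RIM form of the forebrain, gave -0.07 ± 0.07 for continuous ethanol (-0.12 without the 5 arrays) and -0.03 ± 0.07 for limited access. The Munc13 genes Unc13a and Unc13b gave -0.05 ± 0.06 and -0.12 ± 0.08 for continuous ethanol, and -0.02 ± 0.06 and -0.05 ± 0.08 for limited access. For Unc13b in continuous ethanol the value without the 5 arrays was -0.07. Pclo, which encodes piccolo, the large relative of bassoon, gave -0.10 ± 0.10 for continuous ethanol and 0.06 ± 0.10 for limited access (0.01 without the 5 arrays). Its lowest value, 8.39, was that of continuous replicate 7, and the rest of the 29 arrays lay no lower than 8.98.

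The 3 Rab GTPases had differences from water above 0 in both ethanol groups, with medians of 0.13 for continuous ethanol and 0.05 for limited access, and none passed the test. For Rab5a in limited access the difference was only 0.01, or 0.04 without the 3 arrays low on the first component and 0.001 without the 5 apart on the second. Rab3c, one of the RAB3 proteins that ride on synaptic vesicles, had the smallest p of the 36 members in both comparisons with water. Its lowest, median and highest values were 7.50, 7.84 and 7.97 in water, 7.86, 7.92 and 8.14 in limited access, and 7.83, 7.96 and 8.08 in continuous ethanol. All 20 ethanol arrays lay above the water mean of 7.80, but the upper water arrays overlapped with both ethanol groups. Continuous ethanol differed from water by 0.16 ± 0.05 (95% interval 0.05 to 0.26, unadjusted p = 0.00645, adjusted p = 0.182) and limited access by 0.17 ± 0.05 (0.06 to 0.28, unadjusted p = 0.00344, adjusted p = 0.971). Both comparisons use the same 9 water arrays. The ethanol groups differed from each other by 0.01 ± 0.05 (95% interval -0.09 to 0.12).

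Leaving out single arrays moved the Rab3c differences to between 0.12 and 0.18 for continuous ethanol and between 0.13 and 0.19 for limited access. Without the 3 arrays low on the first component they were 0.14 and 0.16, and without the 5 apart on the second they were 0.14 and 0.14. With array weights the continuous ethanol difference was 0.10. Rab3a, the most abundant RAB3 form of brain, had a far narrower spread, with a within-group SD of 0.05. It ranged from 13.31 to 13.46 in water with a median of 13.43, from 13.38 to 13.49 in limited access with a median of 13.45, and from 13.36 to 13.53 in continuous ethanol with a median of 13.45. The differences from water were 0.05 ± 0.03 in both ethanol groups (adjusted p = 0.366 for continuous ethanol and 0.972 for limited access), and 0.03 and 0.02 without the 5 arrays. Its next probe set gave 0.02 ± 0.06 and 0.08 ± 0.06.

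Rab5a directs fusion of early endosomes after vesicle recovery. Its brightest probe set ranged from 11.98 to 12.36 in water with a median of 12.19, from 11.85 to 12.42 in limited access with a median of 12.25, and from 12.18 to 12.41 in continuous ethanol with a median of 12.32. The continuous ethanol arrays lay in the upper part of the water range and just above it. They exceeded the water mean in 9 of 10 arrays, by 0.13 ± 0.06 (adjusted p = 0.286), and limited access was below them by a difference of -0.12 ± 0.06 (adjusted p = 0.540). With the 5 arrays that stood apart on the second component left out, the differences were 0.05 and -0.05. The next probe set of Rab5a gave 0.01 ± 0.05 for continuous ethanol against water and 0.01 ± 0.05 for limited access against continuous ethanol, although the 2 probe sets varied together over the arrays (r = 0.58, adjusted permutation p = 3.25e-05, rho = 0.68).

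**Figure D3:**
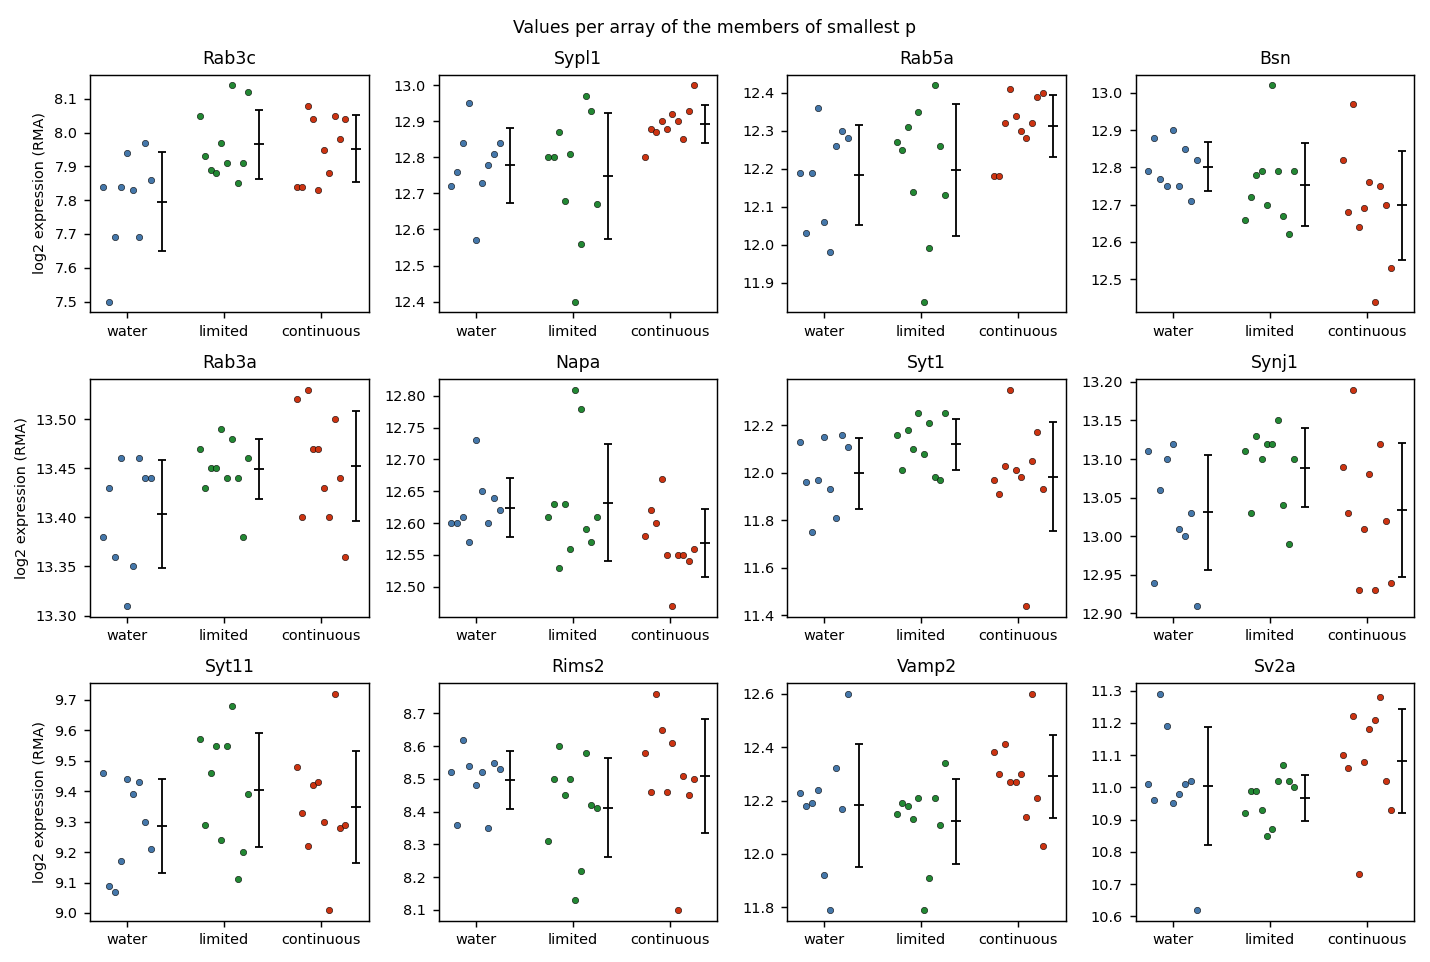
Log2 values of each array (points, vertical axis) by group for the 12 members given with full statistics by the naming rule, with group mean ± SD as bars; n = 9 water, 10 limited access and 10 continuous ethanol arrays. The groups overlap in every panel; for Rab3c all ethanol arrays lie above the water mean of 7.80, and for Sypl1 and Rab5a the limited access arrays spread below those of continuous ethanol.

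The 5 endocytosis and recycling members differed by at most 0.06 in size in each comparison, the narrowest range of the 6 role groups, and none passed the test. Synj1 encodes synaptojanin 1, the lipid phosphatase that helps strip clathrin from recovered vesicles. It ranged from 12.91 to 13.12 in water with a median of 13.03, from 12.99 to 13.15 in limited access with a median of 13.11, and from 12.93 to 13.19 in continuous ethanol with a median of 13.02. Limited access was above the water mean in 8 of 10 arrays, by 0.06 ± 0.04 (adjusted p = 0.972), or 0.04 without the 3 arrays low on the first component, and continuous ethanol differed by 0.00 ± 0.04. Dnm1, the neuronal dynamin that pinches vesicles off, differed from water by 0.00 ± 0.04 in both groups, with a 95% interval of -0.08 to 0.08. Snap91, the clathrin adaptor AP180, gave 0.04 ± 0.04 and 0.01 ± 0.04. Amph, which encodes amphiphysin, gave -0.01 ± 0.05 and 0.04 ± 0.05, and Sh3gl2, which encodes endophilin A1, gave -0.04 ± 0.07 and 0.02 ± 0.07.

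Some genes had several tested probe sets, and 13 pairs could be compared by their deviations from the group means over the 29 arrays. The pairs of Syn1 (r = 0.85, rho = 0.80), Stx1a (r = 0.86, rho = 0.81) and Nsf (r = 0.89, rho = 0.82) varied together. The permutation p adjusted over the 13 pairs was 3.25e-05 for each r, from the smallest p that 100000 permutations can give, and 4.33e-05, 6.5e-05 and 4.33e-05 for rho. The pairs of Sv2b and Syt4 and the dimmest probe set of Vamp1 did not pass, nor did the brightest probe set of Syn2 with one of its others (r = 0.37, adjusted permutation p = 0.0988, rho = 0.33, adjusted permutation p = 0.131). The pair of Cplx1 passed by r (0.62, adjusted permutation p = 0.00192) but not by rho (0.35, adjusted permutation p = 0.0987).

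The members also varied between arrays of the same group. Continuous replicate 7 was the lowest of the 10 continuous ethanol arrays for 17 of 36 members, and for 23.5% of all tested probe sets. Its members lay at a median of -0.11 from their group means. On this array the summed microglia markers, as the mean log2 deviation of 10 genes from all arrays, stood at 0.40, the highest of the group, whose other arrays lay between -0.19 and 0.06. In water this score ranged from -0.10 to 0.17 and in limited access from -0.11 to 0.12. The astrocyte score, over 9 genes, was 0.27 on the same array, and ranged from -0.15 to 0.27 in continuous ethanol, -0.06 to 0.15 in water and -0.08 to 0.03 in limited access.

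**Figure D4:**
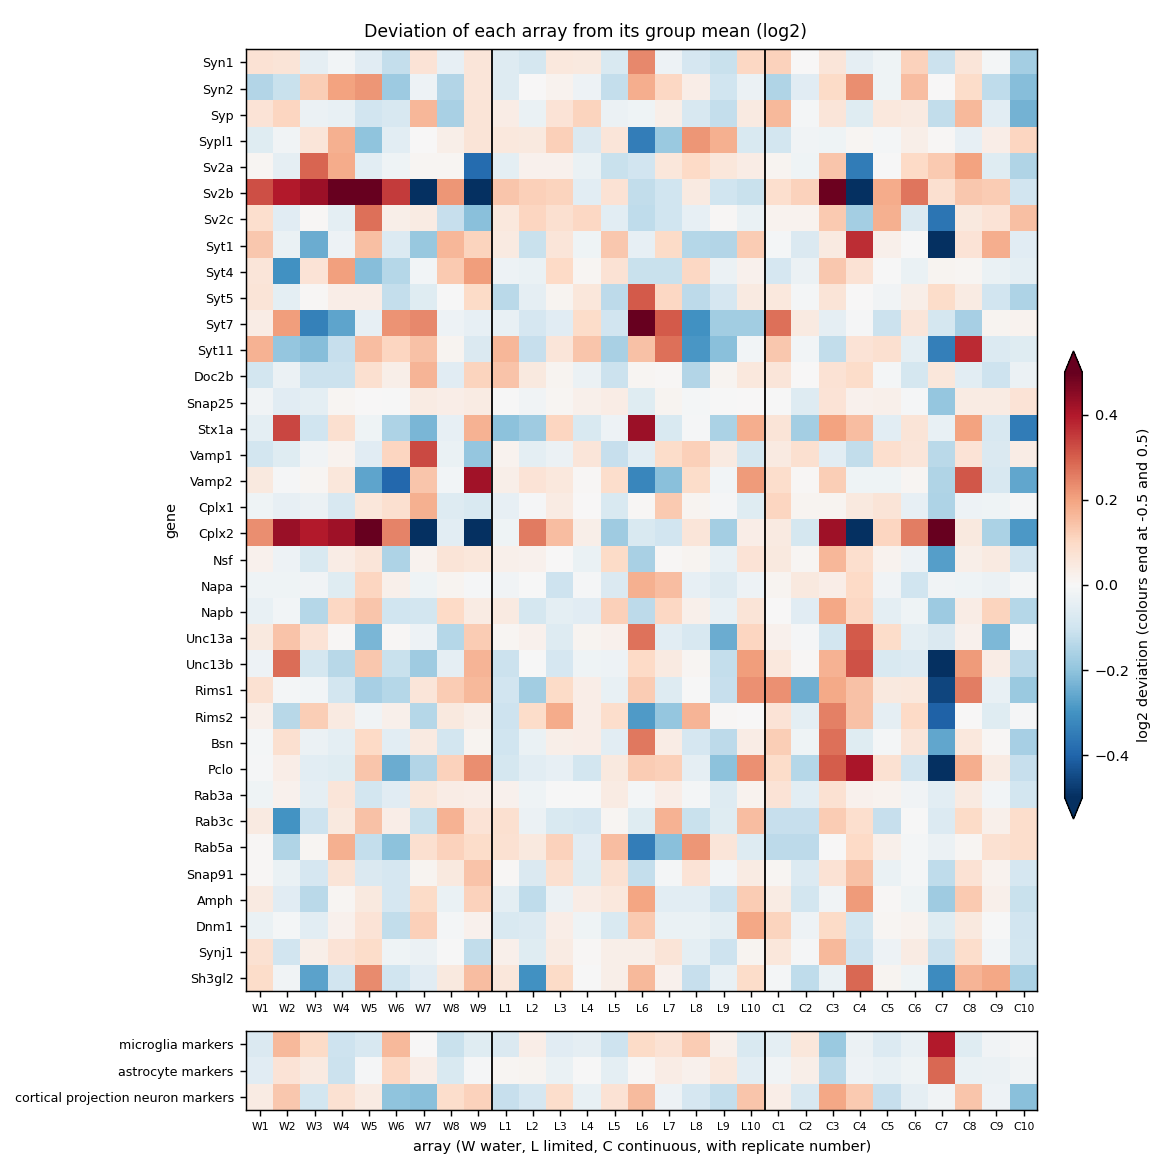
Deviation of each array from its group mean on the log2 scale (colour) for the 36 tested members (rows, by role) and for the microglia, astrocyte and cortical projection neuron marker scores, with the 29 arrays as columns by group. Continuous replicate 7 is low for many members and high for the microglia and astrocyte scores, and Sv2b and Cplx2 are low in water replicates 7 and 9 and continuous replicate 4.

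Deviations of each member from its group means were set against those of 11 marker scores, 396 relations in all. Stx1a followed the cortical projection neuron markers (r = 0.87, rho = 0.89, permutation p adjusted over 396 relations 0.00198 and 0.00238, from the smallest p the permutations can give). Within the groups r was 0.83 in water, 0.88 in limited access and 0.92 in continuous ethanol, and it was 0.84 without continuous replicates 3 and 10. The cortical score was a mean over Slc17a7, Neurod6, Tbr1, Nrn1, Rtn4rl2, Neurod2, Nptx1, Lamp5 and Mef2c. Whether these genes are limited to cortical projection neurons in this tissue was not tested. The score ranged from -0.24 to 0.10 in water, -0.10 to 0.17 in limited access and -0.20 to 0.21 in continuous ethanol. The brightest probe set of Vamp1 ran the other way (r = -0.64, rho = -0.61, adjusted permutation p = 0.0139 and 0.0218, and r = -0.66 without those arrays). In all, 8 of 36 members passed with this score by r and by rho, 7 with a positive and 1 with a negative sign, or 22.2% of the members. The weakest of them reached 0.53 in size by r and 0.56 by rho, and 4.16% of all tested probe sets, the markers of the score left out, reached both limits.

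Nsf ran opposite to the microglia markers (r = -0.83, rho = -0.77, adjusted permutation p = 0.00198 and 0.00238), with r of -0.75 without continuous replicate 7 and water replicate 2. Within groups its r was -0.87 in water, -0.57 in limited access and -0.90 in continuous ethanol. Snap25 (r = -0.81, rho = -0.56), Syt1 (r = -0.72, rho = -0.67), Napb (r = -0.64, rho = -0.66) and Snap91 (r = -0.58, rho = -0.57) also passed by both measures, with r of -0.57, -0.53, -0.61 and -0.51 without those 2 arrays. Pclo passed by r (-0.69, adjusted permutation p = 0.0272) but not by rho (-0.48, adjusted permutation p = 0.0736), and its r was -0.02 in limited access. The 5 members that passed by both measures were 13.9% of the 36, and 2.66% of all tested probe sets reached the limits they set (0.58 by r and 0.56 by rho). With the astrocyte score 6 members passed by both measures, or 16.7%, beside 4.38% of all probe sets at their limits. With the oligodendrocyte precursor score 7 passed, and 22.2% of members and 6.87% of all probe sets reached the limits. Each member that passed with these 3 scores had a negative sign. With the oligodendrocyte score 3 passed, 2 with a negative and 1 with a positive sign, or 8.33% beside 1.75% of all probe sets. The striatal interneuron score had 2, 1 of each sign, or 5.56% beside 1.72%. The endothelial and mural score and the ependymal and choroid plexus score had 1 negative member each, or 2.78% beside 1.2% and 2.0%. These shares, and those for the cortical score, are a description only. Probe sets of an array are not independent, and the limits were set by the members that passed and differ between scores. With the medium spiny neuron, the septal and pallidal and the leptomeningeal scores 0 of 36 passed. The part of cell composition in the members' levels was not tested.

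**Figure D5:**
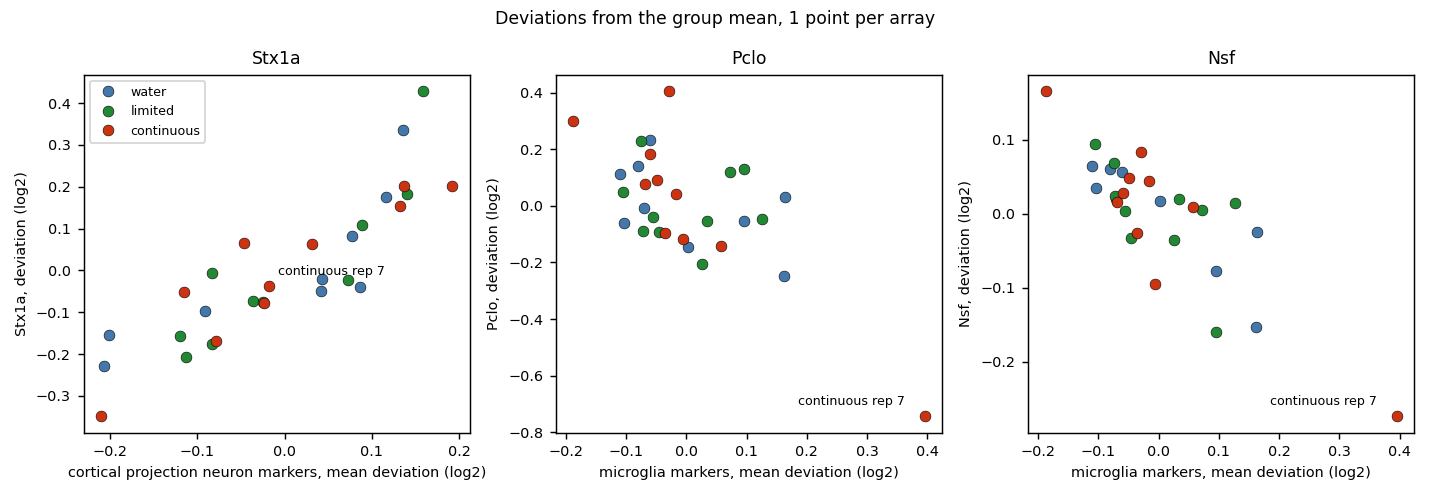
Deviation of Stx1a from its group means against that of the cortical projection neuron score, and of Pclo and Nsf against that of the microglia score (all on the log2 scale); each point is 1 of 29 arrays, coloured by group. Stx1a rises with the cortical score over all 3 groups (r = 0.87), Nsf falls with the microglia score (r = -0.83), and continuous replicate 7 is the point farthest to the right in the microglia panels.

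Other genes of the vesicle cycle were read from 4 further lists. Of 44 other release genes 34 were tested, of 23 other endocytosis genes 20, of 16 subunits of the proton pump that fills vesicles 16, and of 6 vesicular transmitter transporters 5, with none listed for Slc17a8. None of these 75 genes passed the adjusted threshold in any comparison by limma. At an unadjusted p under 0.05, continuous ethanol against water had 2 higher and 3 lower among the other release genes. It had 1 lower among the other endocytosis genes, 1 lower among the pump subunits and 0 among the transporters. Of all tested probe sets 9.62% were higher and 6.48% lower, or 16.1% in all. Limited access against water had 1 higher and 1 lower among the pump subunits, beside 4.44% of all probe sets. Limited access against continuous ethanol had 1 higher among the other release genes, beside 9.31% of all probe sets. There were no others in these 2 comparisons.

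Stx3, a plasma membrane SNARE, was lower in 9 of 10 continuous ethanol arrays, with a difference from water of -0.16 ± 0.05 (adjusted p = 0.191). Scamp5, a secretory carrier protein, gave -0.12 ± 0.06 against water (adjusted p = 0.285) and 0.14 ± 0.06 for limited access against continuous ethanol (adjusted p = 0.526). Dnm2, the dynamin made in most tissues, was below the water mean in all 10 continuous ethanol arrays (-0.12 ± 0.05, adjusted p = 0.287). Itsn1, an endocytic scaffold, gave 0.24 ± 0.13 (adjusted p = 0.344).

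Atp6v0e1, a small subunit in the membrane part of the pump, differed from water by -0.18 ± 0.06 in continuous ethanol (adjusted p = 0.193) and by -0.15 ± 0.06 in limited access (adjusted p = 0.972), lower in 9 of 10 arrays of each group. The stalk subunit Atp6v1e1 differed by 0.05 ± 0.02 in limited access (adjusted p = 0.972). Of the transporters, Slc17a6, which loads glutamate, gave 0.23 ± 0.14 in continuous ethanol (adjusted p = 0.410), and Slc32a1, which loads GABA and glycine, gave 0.09 ± 0.07 (adjusted p = 0.536). Each of these differences stayed short of the threshold.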

How the data were processed

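RNA of 29 samples was hybridised to Affymetrix rat arrays after Trizol extraction and column clean-up, per the labels' protocols. As deposited, the values are log2 intensities that the authors made with RMA, per the submitters' processing notes. RMA corrects background, quantile normalizes arrays and combines a probe set's probes. The range of 4.04 to 16.0 gave the log base, and the software version was not given in the sources used here. Since RMA makes array distributions alike, a shift shared by all transcripts cannot be seen. The labels give no array batches. Precision is limited by how many arrays each group holds.

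Of 31099 probe sets, 57 controls and the dimmest 30 percent by mean over all arrays (limit 6.86) were left out, and 21729 were tested. The model had group as its factor and used all arrays (limma 3.58.1, lmFit and eBayes, in R 4.3.3). Tests were two-sided, with Benjamini-Hochberg adjustment over all tested probe sets and a threshold of 0.05. Changes are differences of group means with their SE, and the number of arrays on a side counts arrays of the first group above or below the mean of the second. A level is never compared between probe sets. Members given with full statistics are, per comparison, the 6 of smallest p, since none passed, and from each further list the 2 of smallest p over the 3 groups. Relations across arrays are between deviations from group means, with p from 100000 permutations within groups, two-sided. The members, lists and naming rule were chosen with earlier results of these data known. Both the fit and the correlations were tested on simulated data with independent noise. Such data lack the variation that probe sets of an array share, and the recovery of differences as small as those of the members is not given here.

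Alternatives were no filter, a filter on the dimmest 50 percent, a block for the replicate number, array weights, a second quantile normalization, median centring of arrays, a robust and trended prior, a 3 prime to 5 prime covariate, omission of the array that least resembled its group, omission of each array, 1 probe set per gene, the mean of the probe sets of a gene and a fit of only the groups compared. Leaving out the 3 arrays low on the first component, or the 5 apart on the second, was chosen after seeing the data. The 5 were bounded by the widest gap among the lower scores, and the 3 were set by no such rule.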

Additional observations from a re-analysis of the deposited data

Results flagged for a closer look

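Each value here is the gap between the extreme array of a group and its nearest neighbour, divided by the range of the group, and was above Dixon's 95% limit (0.493 for 9 arrays and 0.466 for 10). Of 108 groups of member values 10 passed, 8 on the low side. Chance alone gives about 1 in 20, and the members of an array are not independent of each other. The share of all tested probe sets past the same limit was not computed, so the count is not read as particular to the members.

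Continuous replicate 7 was the lowest array of its group for 5 of the genes concerned. They were Syt1 (0.522, at 11.44), Snap25 (0.492, at 14.59), Unc13b (0.471, at 7.53), Rims2 (0.523, at 8.10) and Pclo (0.524, at 8.39). This array also had the highest microglia score of all 29, 0.40.

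Continuous replicate 4 was the lowest of its group for Sv2b (0.69, at 11.20), and water replicate 9 for Sv2a (0.494, at 10.62); both are among the 3 arrays lowest on the first component. Sv2b in water was not past the limit, since 2 water arrays were low. Limited access replicate 6, one of the arrays apart on the second component, was the highest of its group for Bsn (0.575, at 13.02) and the lowest for Nsf (0.491, at 13.73). Continuous replicate 1 was the highest for Syt7 (0.488, at 7.60).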

How the results depend on the processing

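Over all alternatives, each array left out in turn included, 0 members passed the threshold in any of the 4 tests. All 397 alternative values of the counts, medians and named members kept their side of the threshold, and no named member changed sign in the comparison in which it was named. Of 108 differences (36 members in 3 comparisons) 52 turned sign under at least 1 of the alternatives that keep all or leave out a fixed set of arrays, 41 of them under 0.05 in size and 11 not. The 11 include those of named members in other comparisons, such as Vamp2 for limited access against water (-0.06, from -0.10 to 0.02). For Sv2b they ranged from -0.06 to 0.43 in continuous ethanol and from -0.11 to 0.56 in limited access against water, for Cplx2 from -0.11 to 0.33 and from -0.19 to 0.37, and for Syt4 in continuous ethanol from -0.03 to 0.11. Array weights gave 0.09 and -0.05 for Rab5a (continuous ethanol against water, limited access against continuous ethanol), -0.10 for Sypl1 and 0.04 for Napa in the latter, -0.07 for Bsn in the former and 0.03 for Synj1 in limited access against water. The mean of the probe sets of Rab5a gave 0.07 and -0.06, and a second quantile normalization 0.02 for Rab3a in continuous ethanol. The lowest adjusted p of a named member when 1 array was left out was 0.114, for Rab3c against water in continuous ethanol without water replicate 8. Without the 3 arrays low on the first component, the unadjusted p was under 0.05 for 3, 1 and 6 members in the 3 comparisons, and without the 5 apart on the second for 1, 1 and 1. With all arrays there were 3, 1 and 2 such members, beside 16.1%, 4.44% and 9.31% of all tested probe sets. The shares of all probe sets in the fits without these arrays are not given here. The change in the counts is therefore not read as a result about the members. The cause was not tested.

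Replicate numbers did not meet the rule for pairing, which asks for a correlation over 0.1 in every pair: 12 of 28 same-numbered pairs across groups were over it, from -0.24 to 0.34, with a median of 0.08 against -0.01 between other numbers. With the replicate number as a block, 0 members passed in any test, and Rab3c differed from water by 0.14 (adjusted p = 0.198) in continuous ethanol. Spread between arrays limits the precision: for continuous ethanol against water the 95% interval was -0.05 to 0.07 for Snap25 and -0.30 to 0.70 for Sv2b.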
